A study of Homo sapiens with 8 samples.

Results

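The genes described here are 10 genes of the interleukin-6 (IL-6) cytokine family and its JAK-STAT signalling chain, taken by gene symbol from a table of 58870 genes. They are the cytokine genes IL6, LIF and IL11, the receptor genes IL6R, IL6ST, LIFR and OSMR, the transcription factor gene STAT3, and the feedback inhibitor genes SOCS2 and SOCS3. RNA was sequenced from CFPAC-1, an established pancreatic ductal adenocarcinoma cell line, which carried an empty vector (n = 4) or a transgene for ADRA2A, the alpha-2A adrenergic receptor (n = 4). Both groups were grown without drug for 72 hours in IMDM medium with 10% fetal bovine serum and 1% penicillin-streptomycin. The promoter of the transgene, and whether the transduced cells were a pool or a clone, are not given in the sources used here. The labels also do not tell if samples within a group were separate cultures, so the p-values measure only the spread between these samples, which may be technical.

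Cytokines of this family bind a receptor chain of their own and then join the shared chain gp130, the product of IL6ST, or pair it with LIFR or OSMR. The receptor-bound JAK kinases phosphorylate STAT3, which moves to the nucleus and switches on target genes. Among those targets is SOCS3, whose protein blocks gp130 signalling and so closes a negative feedback loop. SOCS2 is better known as a brake on growth hormone signalling through STAT5. In pancreatic cancer, LIF and IL-6 are known as signals exchanged between tumour cells and stromal fibroblasts.

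The promoters of IL6 and IL11 are shown because both cytokine genes fell in the ADRA2A cells and because ADRA2A signals mainly by lowering cyclic AMP. Each sequence is the 250 bases before the RefSeq transcription start on GRCh38.p14, read 5′ to 3′ on the strand of the gene, at chr7:22726950-22727199 (plus strand) for IL6 and chr19:55370464-55370713 (minus strand) for IL11. Capitals mark matches to the motifs searched for on both strands.
IL6: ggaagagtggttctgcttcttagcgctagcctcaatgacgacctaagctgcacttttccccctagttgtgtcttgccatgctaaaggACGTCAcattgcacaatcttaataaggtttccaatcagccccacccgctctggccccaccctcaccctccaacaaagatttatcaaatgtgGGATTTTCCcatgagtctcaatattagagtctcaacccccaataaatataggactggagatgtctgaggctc
IL11: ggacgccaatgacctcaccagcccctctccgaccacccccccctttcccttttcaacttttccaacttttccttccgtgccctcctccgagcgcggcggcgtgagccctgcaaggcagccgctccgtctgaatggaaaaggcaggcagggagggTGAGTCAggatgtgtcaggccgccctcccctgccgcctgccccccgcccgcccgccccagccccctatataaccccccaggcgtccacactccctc
The motifs were the cyclic AMP response element core ACGTCA, the AP-1 site TGANTCA, a kappaB site GGANTTTCC and a STAT site TTCNNNGAA. The IL6 window held ACGTCA at 163 to 158 bases before the start and the kappaB match GGATTTTCC at 72 to 64 bases before it. The IL11 window held the AP-1 match TGAGTCA at 96 to 90 bases before the start and no match to ACGTCA. The part of these motifs, or of cyclic AMP, in the falls of IL6 and IL11 was not tested. Of all 35116 RefSeq windows of this length, 7.10% held ACGTCA, 6.57% TGANTCA, 1.45% GGANTTTCC and 6.57% TTCNNNGAA. A RefSeq window was found for 8 of the 10 genes. LIF and SOCS2, which also fell, had none and were not searched. The STAT letters were found in 2 of the 11 windows, both of LIFR.

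Library totals lay between 14427040 and 17528910 counts. ADRA2A had 0 counts in each empty-vector library and 112, 142, 154 and 172 counts in ADRA2A replicates 1 to 4, so its RNA was seen in the libraries labelled with the transgene. Epithelial markers were abundant in both groups. The summed level of EPCAM, CDH1, KRT8, KRT18 and KRT19 ran from 10935 to 11431 counts-per-million (CPM) in the empty-vector libraries. In the ADRA2A libraries it ran from 10836 to 11906 CPM. At an adjusted p-value under 0.05, 2 of these 5 rose and 2 fell, where 21.6% and 21.1% of all genes tested did. CDH1 fell from 412 to 327 CPM (edgeR adjusted p = 1.68e-07) and KRT19 rose from 2823 to 3245 CPM (edgeR adjusted p = 7.64e-05). Of 16 markers of fibroblasts, leukocytes and endothelium, 11 were too low to be tested, and the leukocyte genes CD3E and MS4A1 were at 0 counts in all libraries. The 7 fibroblast markers, from the cell type best known for IL-6 in this cancer, summed to between 1.58 and 2.16 CPM in the empty-vector and between 0.899 and 1.66 CPM in the ADRA2A libraries. The 5 leukocyte markers summed to 89.7 to 96.1 CPM and 110 to 121 CPM, nearly all of it from CD68 (means of 91.5 and 114 CPM), a lysosomal gene that epithelial cells also express. The 4 endothelial markers summed to 2.05 to 2.71 CPM and 2.64 to 3.35 CPM, with PECAM1 higher (0.773 and 2.43 CPM, edgeR adjusted p = 8.12e-05) and KDR lower (1.23 and 0.482 CPM, edgeR adjusted p = 0.00234) in the ADRA2A cells. The part of these low levels in the results was not tested.

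All 10 genes passed the filter on low counts, IL11 and SOCS2 only through the empty-vector libraries. With edgeR's quasi-likelihood test and Benjamini-Hochberg adjustment over 14785 genes, 7 of the 10 differed at an adjusted p-value under 0.05, against a background of 42.7% of all genes tested. Of these, 4 fell (IL6, LIF, IL11, SOCS2; background 21.1%) and 3 rose (IL6ST, OSMR, STAT3; background 21.6%). IL6R, LIFR and SOCS3 did not pass the test. The groups of libraries did not overlap for the same 7 genes, where 39.2% of all genes tested had no overlap. The members, and the gene lists below, were chosen with earlier results of these data known. Their shares beside the background, here and below, therefore do not test whether the family or a list shifted. The median log2 fold change over the 10 genes was 0.03 and that over all genes tested was 0.00, whereas the medians of the absolute values were 0.30 and 0.18. In bulk RNA, fewer cells that express a gene and less RNA per cell cannot be told apart.

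**Figure D1:**
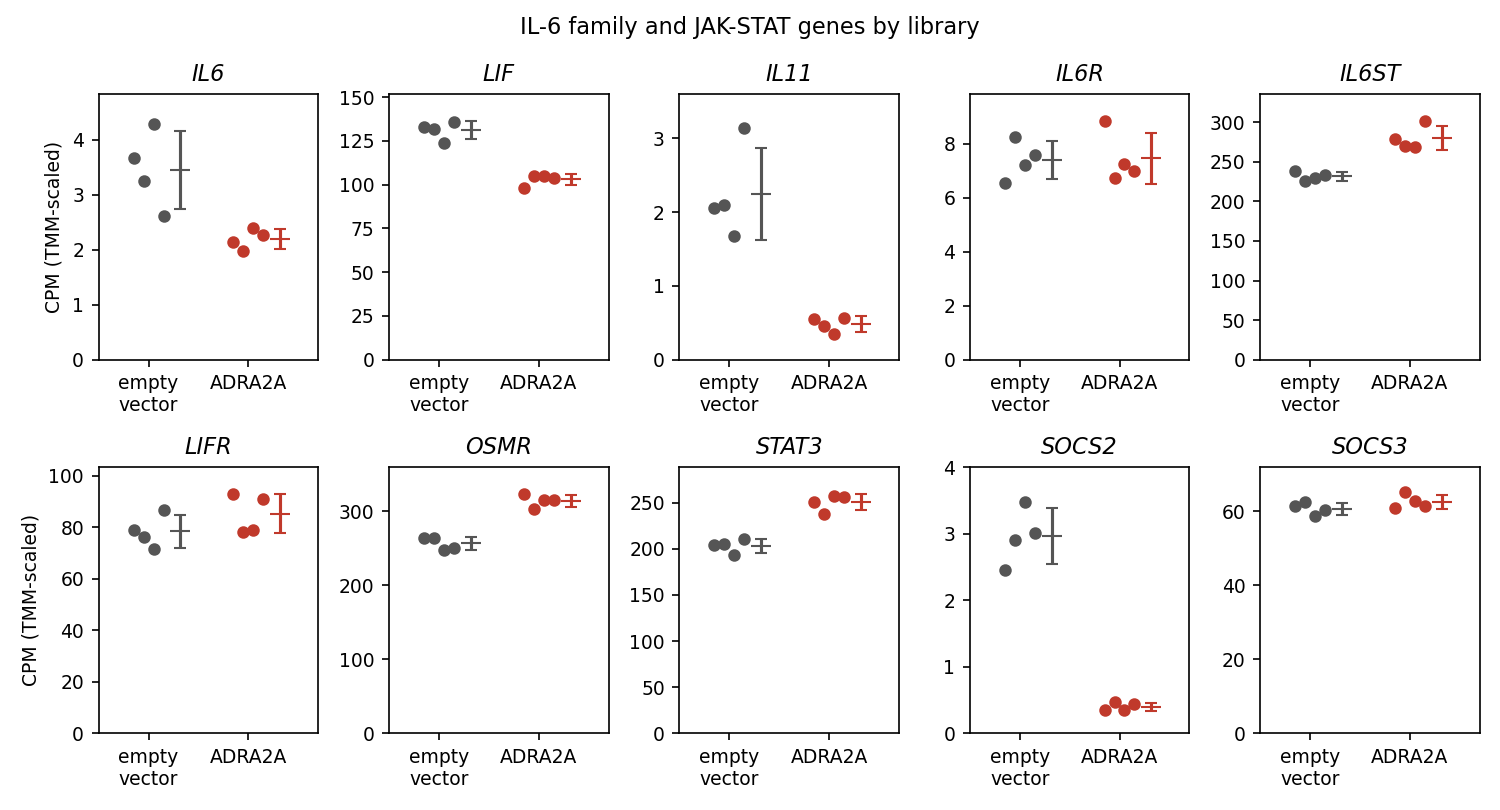
TMM-scaled CPM (y axis, from 0) of each of the 10 genes in the 4 empty-vector libraries (grey) and the 4 ADRA2A libraries (red), with the mean and SD beside the points. IL11 and SOCS2 lie near 0 in the ADRA2A libraries, whereas the points of IL6R, LIFR and SOCS3 overlap between the groups.

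All 3 cytokine genes fell, and LIF was the most abundant of them per exon length. LIF (ENSG00000128342.5; chromosome 22, 30240453 to 30246759, minus strand) encodes leukaemia inhibitory factor, which signals through LIFR and gp130. Its level was 133, 132, 124 and 136 CPM in empty-vector replicates 1 to 4 and 98.1, 105, 105 and 104 CPM in ADRA2A replicates 1 to 4. The lowest empty-vector library thus stood above the highest ADRA2A library. LIF fell 1.27-fold, from 131 ± 4.96 to 103 ± 3.39 CPM (SD, n = 4 each), which is -0.35 ± 0.04 in log2 units (SE; adjusted p = 1.13e-06 by edgeR). It rested on 2110 counts per empty-vector and 1625 per ADRA2A library on average.

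IL11 showed the larger change at a much lower level. IL11 (ENSG00000095752.7; chromosome 19, 55364382 to 55370463, minus strand) encodes interleukin 11, which signals through IL11RA and gp130. It had 35, 31, 29 and 48 counts in empty-vector replicates 1 to 4 against 8, 7, 6 and 9 in ADRA2A replicates 1 to 4. Every ADRA2A library held fewer counts than any empty-vector library. IL11 fell 4.62-fold, from 2.24 ± 0.625 to 0.482 ± 0.104 CPM (SD, n = 4 each), which is -2.21 ± 0.32 in log2 units (SE; adjusted p = 1.14e-05 by edgeR). Its 95% interval ran from -2.87 to -1.55 on the log2 scale.

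IL6 (ENSG00000136244.12; chromosome 7, 22725884 to 22732002, plus strand), the founding cytokine of the family, was also scarce. It had 63, 48, 74 and 40 counts in empty-vector replicates 1 to 4 and 31, 30, 42 and 36 counts in ADRA2A replicates 1 to 4. In CPM, the gap between the groups was narrow, with 2.61 CPM in empty-vector replicate 4 and 2.40 CPM in ADRA2A replicate 3. IL6 fell from 3.46 ± 0.708 to 2.20 ± 0.182 CPM (SD, n = 4 each), which is -0.66 ± 0.20 in log2 units (SE; adjusted p = 0.0138 by edgeR). Without empty-vector replicate 3, the highest library, the log2 fold change was -0.54 and the call was lost (edgeR adjusted p = 0.0577). The antisense gene of IL6, AC073072.1 in the table, had between 2 and 10 counts, and the use of strand is not given in the sources used here.

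Besides IL6, LIF and IL11, the ligand list held 4 tested genes, of which 1 rose and 1 fell (21.6% and 21.1% of all genes tested), and their median change was 0.34 (log2). With the 3 members, 7 of its 10 genes were tested and the median was -0.35, a sign that the members set. CLCF1, a cytokine that acts through the CNTF receptor, fell from 17.2 ± 1.26 to 12.3 ± 0.646 CPM (SD, n = 4 each; log2 fold change -0.49, edgeR adjusted p = 0.000105). CTF1, which encodes cardiotrophin 1, a ligand of LIFR and gp130, rose from 3.35 ± 0.545 to 4.89 ± 0.506 CPM (log2 fold change 0.55, edgeR adjusted p = 0.0124). EBI3, the shared subunit of IL-27 and IL-35, was at 0.494 and 0.988 CPM and did not pass the test (edgeR adjusted p = 0.0702). Leaving out single libraries moved the log2 fold change of EBI3 between 0.67 and 1.42, and without empty-vector replicate 2 it passed (edgeR adjusted p = 0.0247). OSM, the gene of oncostatin M, lies 16.1 kb from LIF and had 0 counts in all 8 libraries. A count of 0 in 127337530 counts allows up to 0.0236 CPM (3 counts over all libraries, counting error only).

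Among the receptor genes, IL6ST and OSMR rose, by 1.21-fold and 1.22-fold, whereas LIFR and IL6R did not pass the test. OSMR (ENSG00000145623.13; chromosome 5, 38845858 to 38945596, plus strand) encodes the oncostatin M receptor. Its level was 264, 264, 248 and 250 CPM in empty-vector replicates 1 to 4 and 323, 303, 315 and 315 CPM in ADRA2A replicates 1 to 4. The groups were separate by a wide margin relative to their spread. OSMR rose 1.22-fold, from 256 ± 8.71 to 314 ± 7.92 CPM (SD, n = 4 each), which is 0.29 ± 0.03 in log2 units (SE; adjusted p = 1.27e-06 by edgeR). The 3′ ends of OSMR and RICTOR overlap on opposite strands, and RICTOR had a mean of 58.6 CPM in the empty-vector and 61.4 CPM in the ADRA2A cells.

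IL6ST (ENSG00000134352.20; chromosome 5, 55935095 to 55995022, minus strand), the gene of gp130, had 238, 226, 229 and 233 CPM in empty-vector replicates 1 to 4. In ADRA2A replicates 1 to 4 it had 279, 270, 269 and 302 CPM, all above the empty-vector libraries, with replicate 4 the highest. IL6ST rose 1.21-fold, from 231 ± 4.98 to 280 ± 15.3 CPM (SD, n = 4 each), which is 0.27 ± 0.04 in log2 units (SE; adjusted p = 1.06e-05 by edgeR). The neighbouring gene IL31RA, named after its values were seen, encodes the IL-31 receptor chain that pairs with OSMR and lies 12.2 kb from IL6ST. IL31RA fell, from 4.8, 4.68, 4.99 and 6.34 CPM to 3.11, 3.36, 3.15 and 2.84 CPM in replicates 1 to 4 (log2 fold change -0.74, edgeR adjusted p = 0.00104). Its ligand gene IL31 had 0 counts in all 8 libraries.

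LIFR (ENSG00000113594.10; chromosome 5, 38474668 to 38608354, minus strand) encodes the receptor chain that LIF binds. It ranged from 71.5 to 86.8 CPM in the empty-vector libraries and from 78.2 to 92.8 CPM in the ADRA2A libraries, so the groups overlapped. LIFR had a log2 fold change of 0.12 with an SE of 0.06 and a 95% interval of -0.01 to 0.25, and did not pass the test (edgeR adjusted p = 0.128). Without empty-vector replicate 4, its highest empty-vector library, the log2 fold change was 0.17 and passed (edgeR adjusted p = 0.0426). The antisense gene LIFR-AS1 overlaps LIFR and had between 27 and 49 counts per library against 1126 to 1438 for LIFR.

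IL6R (ENSG00000160712.13; chromosome 1, 154405193 to 154469450, plus strand) encodes the chain that binds IL-6 itself. It was low in both groups, from 6.55 to 8.27 CPM in the empty-vector and from 6.72 to 8.85 CPM in the ADRA2A libraries. The log2 fold change of IL6R was 0.01 with an SE of 0.12 (adjusted p = 0.945 by edgeR), and its 95% interval ran from -0.24 to 0.27. The interval leaves room for a change of IL6R from -15.5% to 20.5%. Of the other receptor genes, IL11RA (2.67 and 2.96 CPM) and IL27RA (9.0 and 10.9 CPM) did not pass the test, and CNTFR was too low to be tested. IL27RA passed without ADRA2A replicate 4 (log2 fold change 0.37, edgeR adjusted p = 0.0257). In the whole receptor list of 7 genes, 6 passed the filter and their median change was 0.20 (log2). The 2 that rose are IL6ST and OSMR, and a share of 2 in 6 is near the 42.7% called among all genes tested.

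**Figure D2:**
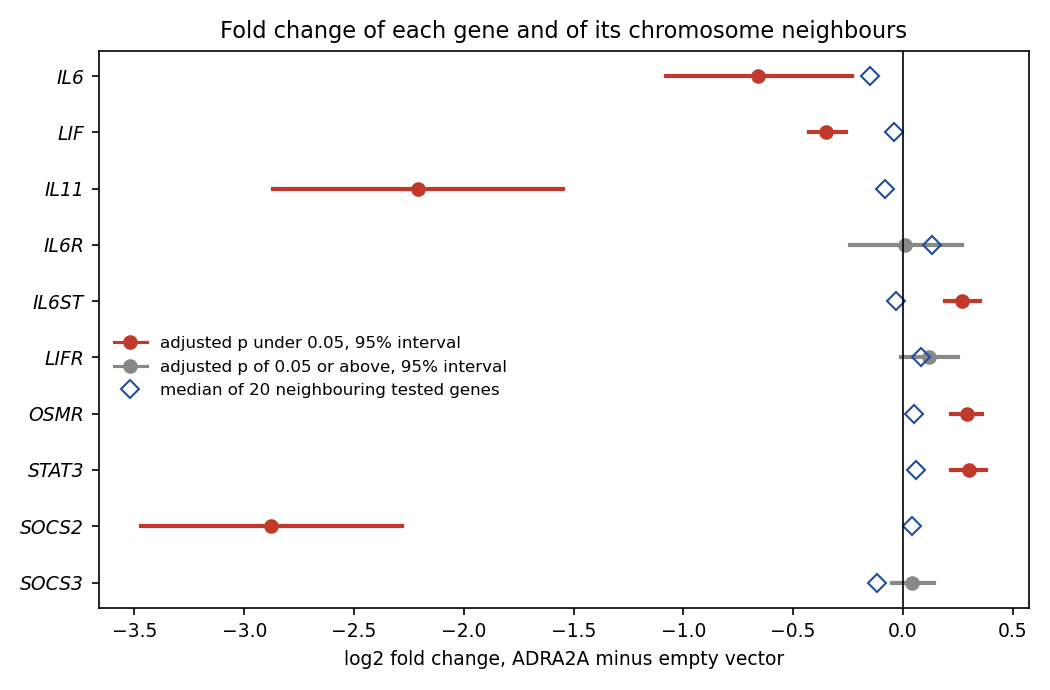
Log2 fold change (x axis, ADRA2A minus empty vector) of each of the 10 genes with its 95% interval, red where the adjusted p-value was under 0.05 and grey otherwise. Blue diamonds give the median log2 fold change of the 20 nearest tested genes, all of which lie between -0.15 and 0.13.

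STAT3 (ENSG00000168610.14; chromosome 17, 42313324 to 42388540, minus strand), the main transcription factor downstream of gp130, rose as well. It had 204, 205, 193 and 211 CPM in empty-vector replicates 1 to 4 and 251, 238, 257 and 256 CPM in ADRA2A replicates 1 to 4. No ADRA2A library reached down to the empty-vector range. STAT3 rose 1.23-fold, from 203 ± 7.22 to 251 ± 8.78 CPM (SD, n = 4 each), which is 0.30 ± 0.04 in log2 units (SE; adjusted p = 1.93e-06 by edgeR). RNA levels do not report phosphorylation, so the activity of STAT3 was not measured.

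Of 10 kinase and STAT genes, STAT3 included, all were tested, 7 rose and 0 fell, with a median log2 fold change of 0.30, where 21.6% of all genes tested rose, 21.1% fell and the median was 0.00. JAK1, the kinase most used by gp130, rose from 173 ± 4.83 to 213 ± 5.74 CPM (log2 fold change 0.31, edgeR adjusted p = 1.04e-06). STAT6, the IL-4 and IL-13 transcription factor, rose from 143 ± 4.74 to 174 ± 7.86 CPM (log2 fold change 0.29, edgeR adjusted p = 1.04e-05). STAT2, a transcription factor of type I interferon signalling, rose from 78.6 ± 11 to 103 ± 4.06 CPM (log2 fold change 0.39, edgeR adjusted p = 0.000177). JAK2, STAT4 and TYK2 did not pass the test. Without empty-vector replicate 3 the number that rose was 4, since JAK3, STAT5A and STAT5B no longer passed.

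Empty-vector replicate 3 was also the lowest library for interferon-induced genes, and the empty-vector libraries differed widely among themselves in these genes. The summed level of 13 interferon target genes was 1251, 1017, 782 and 939 CPM in empty-vector replicates 1 to 4 and 1589, 1643, 1677 and 1780 CPM in ADRA2A replicates 1 to 4. Of these genes 12 were tested and 12 rose, where 21.6% of all genes tested rose, and their median change was 0.66 (log2). In 7 of 13 alternatives 11 of them were called, GBP1 being the gene that no longer passed. By the naming rule these included the antiviral genes MX1 (1.01), OAS1 (0.93) and OAS2 (1.09), the ubiquitin-like modifier ISG15 (0.87) and the peptide transporter TAP1 (0.47), each given by its log2 fold change. STAT2 and STAT3 are themselves induced by interferon in many cells, and the part of this shift in the rise of STAT3 was not tested. Without empty-vector replicate 3, the log2 fold change of STAT3 was 0.28 (edgeR adjusted p = 1.18e-05). In that fit 11 of the interferon targets still rose, MX1 by 0.84 (log2), so it cannot decide that part.

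Of the feedback genes, SOCS2 had the largest change of all 10 genes and SOCS3 did not pass the test. SOCS2 (ENSG00000120833.14; chromosome 12, 93569814 to 93583487, plus strand) had 42, 43, 60 and 46 counts in empty-vector replicates 1 to 4 and 5, 7, 6 and 7 counts in ADRA2A replicates 1 to 4. The lowest empty-vector library held 42 counts and the highest ADRA2A library 7. SOCS2 fell 7.34-fold, from 2.96 ± 0.420 to 0.398 ± 0.0625 CPM (SD, n = 4 each), which is -2.88 ± 0.29 in log2 units (SE; adjusted p = 1.04e-07 by edgeR). The antisense gene SOCS2-AS1, which overlaps the start of SOCS2, had 3, 5, 4 and 4 counts in the empty-vector and 0, 1, 0 and 1 counts in the ADRA2A libraries, too few to be tested.

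SOCS3 (ENSG00000184557.4; chromosome 17, 78356778 to 78360077, minus strand), the direct STAT3 target and inhibitor of gp130, lay between 58.7 and 62.4 CPM in the empty-vector and between 60.8 and 65.1 CPM in the ADRA2A libraries. With overlapping groups, SOCS3 had a log2 fold change of 0.04 and an SE of 0.04 (adjusted p = 0.479 by edgeR). Its 95% interval of -0.05 to 0.14 leaves room for a rise of at most 9.89% at that level of confidence. The log2 ratio of SOCS2 to SOCS3 counts within each library was -4.35 ± 0.23 in the empty-vector and -7.19 ± 0.19 in the ADRA2A cells (SD, n = 4 each; 0.5 added to each count). The difference of -2.84 had the smallest two-sided p that 4 against 4 allows (exact permutation test, p = 0.0286). Since SOCS2 alone already separated the groups and SOCS3 hardly moved, this p-value was fixed beforehand and adds nothing to the SOCS2 result. Adjusted over the 3 ratios tested, the p-value was 0.0857, the lowest possible unless another ratio also had the smallest p. With 5 added to each count in place of 0.5 the difference was -2.23, since SOCS2 has 5 to 7 counts in the ADRA2A libraries.

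The other ratios compared receptor chains. OSMR and LIFR are related genes 238 kb apart on chromosome 5, and their log2 count ratio was 1.71 ± 0.13 in the empty-vector and 1.88 ± 0.10 in the ADRA2A cells (SD, n = 4 each). The difference of 0.17 did not pass (exact permutation test, p = 0.0857, adjusted p = 0.0857). The log2 count ratio of IL6R to IL6ST was -4.97 ± 0.17 and -5.23 ± 0.19, a difference of -0.26 with the same p-value (exact permutation test, p = 0.0857, adjusted p = 0.0857).

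Of 16 inhibitor genes of the pathway, SOCS2 and SOCS3 included, 15 were tested, 3 rose and 5 fell, beside 21.6% and 21.1% of all genes tested, and the median change was -0.02 (log2). PTPN1 and PTPN2, phosphatases that remove phosphate from JAKs and STATs, fell slightly. PTPN1 went from 162 ± 3.45 to 141 ± 3.66 CPM (log2 fold change -0.20, edgeR adjusted p = 0.000148) and PTPN2 from 22.8 ± 0.867 to 18.4 ± 0.818 CPM (log2 fold change -0.31, edgeR adjusted p = 0.00123). PIAS1, a SUMO ligase of the inhibitor list, rose from 50.4 ± 3.53 to 62.3 ± 4.03 CPM (log2 fold change 0.30, edgeR adjusted p = 0.000259). CISH, another STAT5 feedback gene like SOCS2, was at 1.39 ± 0.322 and 1.43 ± 0.399 CPM and did not pass the test (edgeR adjusted p = 0.946).

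Genes known as STAT3 targets in other cells moved in both directions. Of 25 such genes 19 were tested, 9 rose and 7 fell, where 21.6% of all genes tested rose and 21.1% fell, and the median log2 fold change was 0.19. FOS, an AP-1 transcription factor gene, rose from 11.3 ± 0.911 to 41.3 ± 5.13 CPM (log2 fold change 1.87, edgeR adjusted p = 2.23e-12). The fibrinogen chains FGA and FGB, acute phase proteins of the liver that IL-6 induces, rose to 5.37 ± 0.321 and 91.7 ± 6.64 CPM, with log2 fold changes of 1.25 and 1.37 (edgeR adjusted p = 2.52e-05 and 2.45e-11). CCND1, the cyclin D1 gene, fell from 479 ± 5.67 to 356 ± 4.93 CPM (log2 fold change -0.43, edgeR adjusted p = 6.75e-10). PIM1, a kinase gene, and BATF, a transcription factor gene, both named after their values were seen, fell by 0.82 and 0.81 on the log2 scale (edgeR adjusted p = 8.44e-07 and 1.38e-05). LRG1, SERPINA3 and JUNB, also named after their values were seen, rose by 0.71, 0.66 and 0.64 (edgeR adjusted p = 2.11e-08, 0.00278 and 1.71e-08). Most of these genes also answer to other pathways. The other fibrinogen chain, FGG, and the acute phase genes CRP, HP, LBP, SAA1 and SAA2 were too low to be tested.

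**Figure D3:**
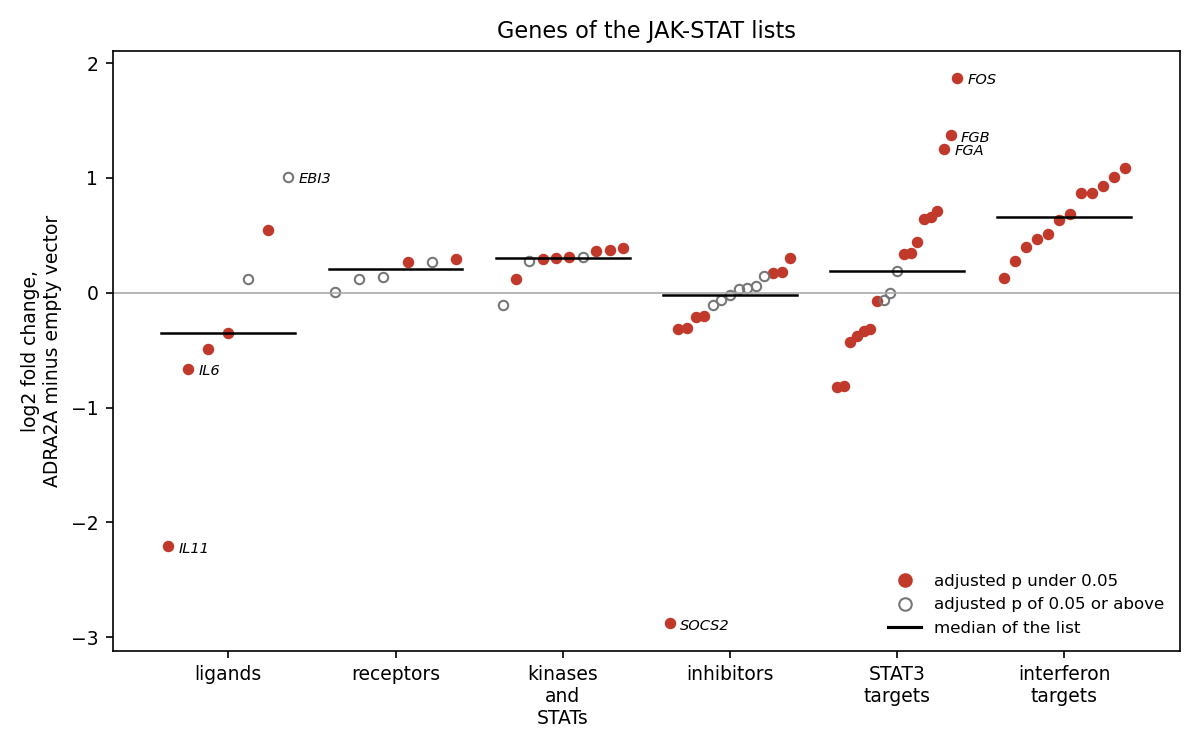
Log2 fold change (y axis, ADRA2A minus empty vector) of each tested gene of the 6 pathway lists, filled red where the adjusted p-value was under 0.05, with a line at the median of each list. The list medians run from -0.35 for ligands to 0.66 for interferon targets, and IL11 and SOCS2 lie lowest.

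To compare levels between genes, CPM was divided by the length of all annotated exons in kilobases. This understates a gene whose cells use a short isoform. In the empty-vector cells OSMR was highest at 35.7 ± 1.21 CPM per kb (SD, n = 4), and its libraries overlapped those of LIF at 33.9 ± 1.28 CPM per kb. SOCS3 (22.2 CPM per kb), IL6ST (19.2) and STAT3 (18.1) followed, with overlap between IL6ST and STAT3 only. LIFR stood apart at 6.45 CPM per kb, and IL6R, IL11 and IL6 lay between 0.801 and 1.06 CPM per kb with overlap of each with the next. SOCS2 was lowest at 0.458 CPM per kb.

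In the ADRA2A cells OSMR was again highest, at 43.7 ± 1.1 CPM per kb, and no longer overlapped LIF at 26.6 ± 0.877 CPM per kb (SD, n = 4 each). IL6ST, SOCS3 and STAT3 lay at 23.2, 22.8 and 22.4 CPM per kb and overlapped, each with the next. Below LIFR (7.01 CPM per kb), the 4 lowest genes were IL6R (1.07), IL6 (0.509), IL11 (0.180) and SOCS2 (0.0615), with no overlap between neighbours in this order. In every library of both groups, OSMR and IL6ST stood above IL6R, the IL-6 binding chain, on this scale.

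**Figure D4:**
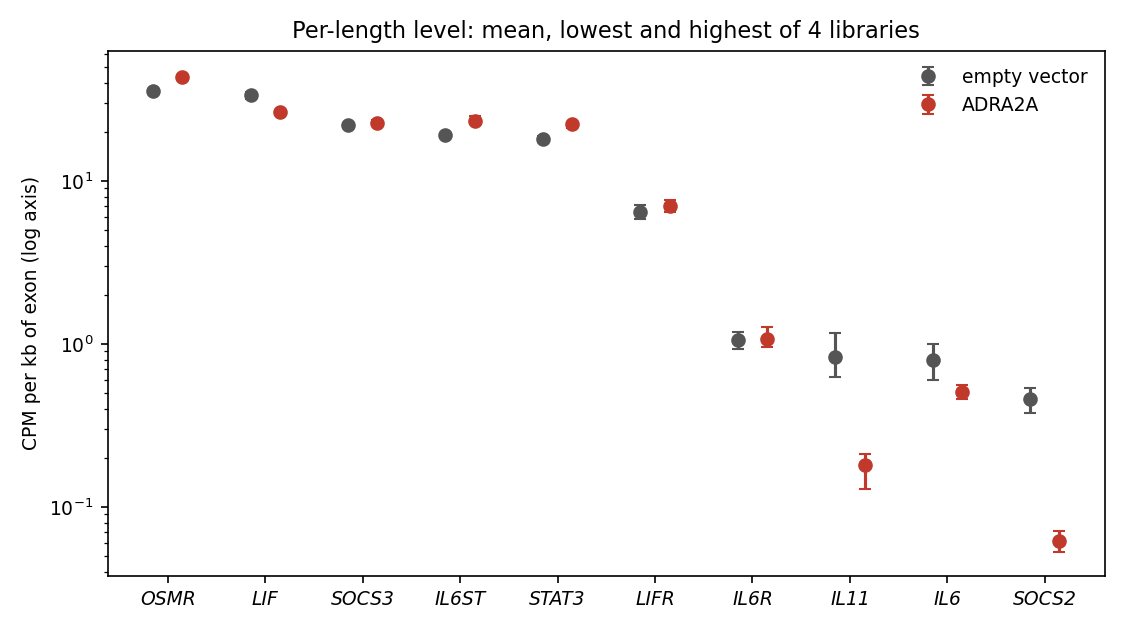
Level of each gene in CPM per kb of exon (y axis, log scale), with the points at the mean and the bars from the lowest to the highest of 4 libraries, grey for empty vector and red for ADRA2A. Genes are in the order of their empty-vector level, from OSMR at 35.7 to SOCS2 at 0.458 CPM per kb.

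Since genes of 1 chromosome stretch can shift together in these cells, each gene was set beside the 10 tested genes on either side. Around SOCS2 the 20 neighbours had a median log2 fold change of 0.04, and 0 of them lay below SOCS2. Around IL11 the median was -0.08 and again 0 of 20 neighbours lay below it. The absolute changes of SOCS2 and IL11 exceeded those of 99.7% and 99.1% of all genes tested. Hardly any neighbour could thus lie below them at any position. For IL6 the median was -0.15, with 14 of 20 neighbours lower in the ADRA2A cells and 3 below IL6 itself. Of these 20, 8 were called lower and 1 higher, where 21.1% and 21.6% of all genes tested were. The tested genes beside IL6, named after their values were seen, were AC002480.1 (-1.19) and TOMM7 (0.04). The part of position in the fall of IL6 was not tested. For LIF the median was -0.04, with 2 of 20 neighbours below LIF. The medians around IL6ST (-0.03), OSMR (0.05) and STAT3 (0.06) were smaller than the change of the gene itself, and 1, 3 and 4 of 20 neighbours lay above it. OSMR and LIFR share most of their neighbours.

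The spread among replicates was near or below counting error for some of these genes and above it for others. SOCS3 varied by 2.63% (coefficient of variation over 4 empty-vector libraries), where counting alone gives 3.20%, and SOCS2 by 14.2% where counting gives 14.5%. LIFR varied by 8.11% where counting gives 2.82%, and IL6 by 20.4% where counting gives 13.3%. In the ADRA2A cells the counts of SOCS2 and IL11 averaged 6.25 and 7.5 per library, and counting error there is 40.0% and 36.5%. The observed spread of SOCS2 and IL11 there was lower, at 15.7% and 21.5%. IL6 varied by 8.27% in the ADRA2A cells, where counting gives 17.0%. The SDs of these 3 genes in the ADRA2A cells are thus smaller than counting alone gives.

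The genes most like LIF, SOCS2 and SOCS3 across the 8 libraries were taken from 10159 genes of at least 10 CPM by Pearson's r of log2 CPM. The libraries fall into 2 groups, so a high r mainly reflects the same difference between them. For LIF these were NMT2 (r = 0.990), VEGFA (0.988), a growth factor gene for blood vessels, and MACC1 (0.987), with log2 fold changes of -0.74, -0.38 and -0.57. For SOCS2 they were ALDH1A3 (r = 0.997), a retinoic acid synthesis enzyme, FSCN1 (0.996), an actin bundling protein, and CCND1 (0.995), with log2 fold changes of -0.86, -0.53 and -0.43. For SOCS3, which did not pass the test, they were LSM7 (r = 0.967), MED19 (0.949) and CLDN3 (0.943), with log2 fold changes of 0.14, 0.15 and 0.08.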

How the data were processed

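RNA sequencing libraries of 8 samples (2 groups of 4) were compared. The authors deposited estimated counts per gene from RSEM, not scaled between samples. Per the submitters' processing notes, cutadapt, STAR, RSEM and DESeq2 were used with build hg38. Versions, the annotation release and the strand setting are not given in the sources used here. All columns were matched to samples by title, and 0 were left over.

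Counts were rounded to whole numbers and filtered with filterByExpr, which left 14785 genes. Library sizes were scaled by TMM (factors 0.9938 to 1.0055), and the quasi-likelihood test of edgeR 4.0.16 (R 4.3.3) was fitted with group as the only term. The SE is the absolute log2 fold change divided by the square root of F, and intervals are 95% t intervals. In simulated counts of 14648 genes for this comparison, 99 genes were changed by 1 and 100 by 0.5 (log2). Of these, 96.0% and 78.0% were called. In the data 42.7% of genes were called, so the rates may differ there. They also average over all levels and do not describe genes of few counts. Positions and exon lengths come from GENCODE 44 on GRCh38 (99.4% of genes matched by identifier) and promoters from RefSeq.

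The alternatives were DESeq2 1.42.0, RLE or upper quartile factors, no filter beyond 1 count, a replicate block, and fits of the same genes without each library in turn. Ratios used exact permutation tests over 70 divisions. Named genes were the 10 members, in each pathway list the 3 other genes with the smallest p-value and any called with a log2 fold change of 1 or more in either direction, and the 3 genes most like LIF, SOCS2 and SOCS3. The members and lists were chosen with earlier results of these data known, and 1 gene of the kinase and STAT list is not reported here. No libraries of 1 group agreed within counting noise (mean chi-square per gene from 2.12 to 4.59).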

Additional observations from a re-analysis of the deposited data

Results flagged for a closer look

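In 60 groups of 4 libraries, 1 for each group and each of the 30 genes named as members or by the list rule, 3 held a library set apart from the other three by Dixon's criterion, and chance flags about 1 in 20 such groups. LIF was at 98.1 CPM in ADRA2A replicate 1, below the other ADRA2A libraries at 104 to 105 CPM. CLCF1 was at 15.4 CPM in empty-vector replicate 4, below 17.7 to 18.1 CPM in the others. PTPN1 was at 157 CPM in empty-vector replicate 1, against 164 CPM in the others.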

How the results depend on the processing

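Over 130 fits of the 10 members (13 alternatives each), 123 kept the direction and the side of the threshold. The exceptions were IL6 without empty-vector replicate 3, LIFR in 2 fits, and IL6R in 4. IL6R was never called and changed sign at -0.00 with upper quartile factors. It also did so without empty-vector replicate 1 (-0.04) or 3 (-0.00) and without ADRA2A replicate 1 (-0.07). All fits of IL6R that left out 1 library lay between -0.07 and 0.07. The number of members called lay between 6 and 8, and that of all genes between 5679 and 6550. Leaving out single libraries gave 4 to 7 called kinase and STAT genes and a difference in the log2 ratio of OSMR to LIFR of 0.11 to 0.20, which passed at 0.20 without ADRA2A replicate 4 (exact permutation test, p = 0.0286). The cause of these changes was not tested.

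Same-numbered libraries did not deviate together (r = -0.021, -0.042, 0.070 and -0.024 for replicates 1 to 4). This gave no sign of pairing but cannot exclude a factor that same-numbered samples share. With the replicate block 6400 genes and 8 members were called, the added member being LIFR (log2 fold change 0.12, edgeR adjusted p = 0.038). The SOCS2 to SOCS3 log2 ratio difference of -2.84 had p = 0.125 in the paired exact test with the replicate block, the smallest that 4 pairs allow. Depth limits IL11 and SOCS2 in the ADRA2A libraries, at 5 to 9 counts.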
